A study of Rattus norvegicus with 6 samples.

Results

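The miR-23/27/24 family of the rat was followed in the lumbar spinal cord through 10 rows of a count table that lists 753 mature miRNAs. The rows were taken by name. Those of the 23a cluster are rno-miR-23a-3p, rno-miR-23a-5p, rno-miR-27a-3p, rno-miR-27a-5p and rno-miR-24-2-5p (5 rows), those of the 23b cluster are rno-miR-23b-3p, rno-miR-23b-5p, rno-miR-27b-3p and rno-miR-27b-5p (4 rows), and rno-miR-24-3p is shared by both. The small RNA libraries came from 3 rats with bone cancer pain (BCP group), whose left tibia had been injected with living Walker 256 breast carcinoma cells, and 3 sham-operated rats, which had received heat-killed cells of the same line, so both groups carried an injection of tumor material. Tissue was taken on day 14 from the injected side of the lumbar enlargement with the meninges removed. The labels give the strain as Wistar and the study's methods give female Sprague Dawley rats; the age of the rats is not given in the sources used here. Each rat gave 1 library, which mixes all cell types of the cord.

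A miRNA cluster is a group of hairpins cut from a single primary transcript. The 2 clusters arose by duplication, so each makes a miR-23, a miR-27 and a miR-24. Each hairpin can release a mature miRNA from its left arm (5p) and its right arm (3p), and in this family the 3p arm is the abundant one that is mainly loaded into the silencing complex. The family is known for roles in blood vessels, lymphocytes, macrophages and lipid metabolism, and miR-23a is also known in oligodendrocytes, the cells that make myelin. The comparison addressed here was whether the clusters and their arms differed between BCP rats and sham-operated rats.

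The mature sequences show how close the members are, which bears on every comparison between the copies. RefSeq held the mature sequence of 9 of the 10 members (build GRCr8), and rno-miR-23a-5p is only named. In the sequences below, written 5′ to 3′, the capitals mark the seed, bases 2 to 8, which is the main part that pairs with target transcripts.

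rno-miR-23a-3p: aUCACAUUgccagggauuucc
rno-miR-23b-3p: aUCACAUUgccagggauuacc
rno-miR-27a-3p: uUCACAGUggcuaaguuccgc
rno-miR-27b-3p: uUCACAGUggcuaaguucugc
rno-miR-24-3p: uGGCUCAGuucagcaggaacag
rno-miR-27a-5p: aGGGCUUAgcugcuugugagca
rno-miR-27b-5p: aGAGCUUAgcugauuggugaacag
rno-miR-24-2-5p: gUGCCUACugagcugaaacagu
rno-miR-24-1-5p: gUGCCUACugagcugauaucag
rno-miR-23b-5p: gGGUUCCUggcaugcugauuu

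miR-23a-3p and miR-23b-3p shared 1 seed and differed at 1 base, U19A, where positions are counted from the 5′ end and the 23a cluster's base is written first. miR-27a-3p and miR-27b-3p also shared their seed and differed at 1 base, C19U. The seeds of miR-23-3p and miR-27-3p differed from each other at 1 base, U7G. The 5p arms were further apart. miR-27a-5p and miR-27b-5p differed at 8 of the 22 bases compared, 1 of them in the seed (G3A), and miR-24-2-5p differed from miR-24-1-5p, the 5p arm of the other miR-24 hairpin, at 5 of 22 bases, none of them in the seed. miR-24-3p had the same sequence at both hairpins, so its reads belong to both clusters. How the authors assigned reads that match more than 1 of these miRNAs is not given in the sources used here, so the 3p values of the copies are uncertain to that extent. The study's methods give a length of 21 to 22 nucleotides for known miRNAs, and miR-27b-5p has 24 bases. Its level, ratios and shares are uncertain for that reason, and the effect was not tested.

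In GRCr8 the 3 hairpins of the 23a cluster lie on the minus strand at chr19:40859455-40859843, a span of 389 bases that overlaps no other annotated gene. The hairpins of the 23b cluster lie on the minus strand at chr17:1818669-1819482, a span of 814 bases inside the annotated gene Aopep, which codes for an aminopeptidase, and it shares 4 bases at its end with Fancc, a gene of the Fanconi anaemia pathway. The count table carries no coordinates and the submitters' processing notes name the build Rnor_6.0, so these positions are those of RefSeq and not of the authors' alignment.

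Total counts lay between 13464349 and 23770677 per library. The levels below are CPM, read counts scaled to a common library size with edgeR's TMM factors. BCP and sham-operated rats were set against each other by the quasi-likelihood test of edgeR, adjusted by Benjamini-Hochberg over the 459 miRNAs left by a filter on low counts. Where 3 values are given for a group, they belong to rats 1, 2 and 3 in that order. A call needs an adjusted p below 0.05 and a log2 fold change above 0.8 in size, the thresholds the study used. The study named edgeR without its test and also left out unannotated and very low miRNAs. The quasi-likelihood test was chosen here, so the calls below are not the study's list, which holds calls in both directions. The miRNAs fixed as a check of the labelled tissue were present in every library: the 5 of the central nervous system summed to between 121084 and 136416 CPM and the 3 that mark posterior position to between 19292 and 24311 CPM. Most of the first sum was miR-9a-5p and miR-128-3p. In the same list miR-219a-5p lay only between 4.28 and 6.33 CPM and miR-338-3p between 19.2 and 29.2 CPM. Nothing in the sources used here says that same-numbered rats of the groups belong together.

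The family was led by its 23b cluster. miR-27b-3p was at 12790, 11234 and 14005 CPM after sham operation, against 12293, 14328 and 14139 CPM with BCP, which ranked it at place 20 of the 603 detected miRNAs in the sham-operated group. It alone made up between 61.2% and 66.2% of the counts of the 10 rows. The 10 rows together held from 1.81% to 2.24% of a sham-operated library and from 1.99% to 2.30% of a BCP library. The 95% Wilson intervals of these shares in single libraries were at most 0.362 percentage points wide and cover counting error only, because PCR copies of 1 molecule were not marked and count as separate reads.

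In the sham-operated group the order of the mean levels was miR-27b-3p (12676 CPM), miR-24-3p (3578 CPM), miR-23b-3p (1716 CPM), miR-27a-3p (976 CPM), miR-23a-3p (779 CPM), miR-24-2-5p (142 CPM), miR-27b-5p (17.4 CPM), miR-23b-5p (9.93 CPM), miR-27a-5p (8.82 CPM) and miR-23a-5p (0.409 CPM). Neighbours in this order did not overlap between the 3 sham-operated rats, apart from miR-23b-5p and miR-27a-5p, whose ranges did. In the BCP group the order changed at 2 places, since miR-27a-3p overlapped the level of miR-23b-3p and had a higher mean, and miR-27a-5p lay above miR-23b-5p in every rat. CPM is not a number of molecules, because library preparation captures some small RNA sequences better than others.

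**Figure D1:**
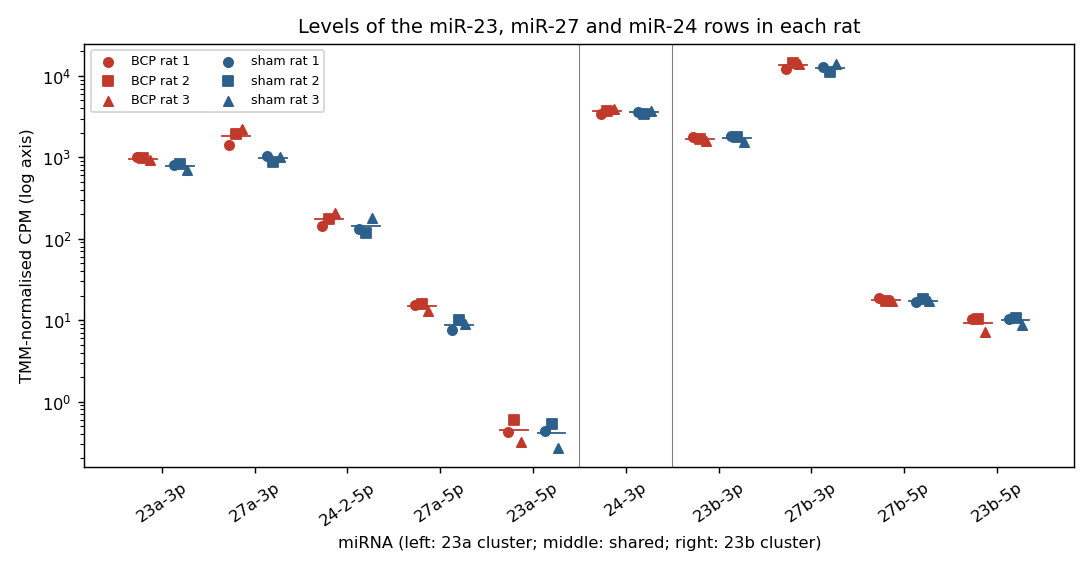
TMM-normalised CPM (log axis) of the 10 rows in each rat, with the 23a cluster on the left, the shared miR-24-3p in the middle and the 23b cluster on the right. Points are single rats and short lines are group means; the 3 BCP rats lie above the 3 sham-operated rats for miR-23a-3p, miR-27a-3p and miR-27a-5p, and the groups overlap for the other rows.

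The rows that passed the test between the groups both came from the miR-27a hairpin of the 23a cluster. miR-27a-3p was higher in the BCP group, as was miR-27a-5p at an adjusted p below 0.05 but with a smaller fold change than the call requires. None of the 4 rows of the 23b cluster, and not the shared miR-24-3p, passed the test. Of the 10 rows 9 passed the filter on low counts, miR-23a-5p being left out. In tissue that mixes cell types, more cells of a type and more RNA per cell cannot be told apart.

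miR-27a-3p was at 1401, 1923 and 2232 CPM with BCP, against 1040, 883 and 1005 CPM after sham operation. All 3 BCP rats lay above all sham-operated rats, and the spread was wider in the BCP group, where rat 1 was lowest. The means were 1852 ± 420 CPM (SD, n = 3) and 976 ± 82.5 CPM (SD, n = 3). The log2 fold change was 0.92 (standard error 0.17, edgeR's quasi-likelihood test, adjusted p = 0.0228), a fold of 1.90. This call was lost without any 1 of 5 rats and kept without BCP rat 1. The adjusted p was 0.00323 without BCP rat 1, but 0.106 without BCP rat 2, 0.0794 without BCP rat 3, and 0.118, 0.0618 and 0.0535 when sham-operated rat 1, 2 or 3 was dropped, with log2 fold changes from 0.76 to 1.07.

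miR-27a-5p, the rarer arm of the same hairpin, had 361, 214 and 207 counts with BCP, against 104, 151 and 135 counts after sham operation. These were 15.3, 15.8 and 13.1 CPM with BCP, against 7.50, 9.93 and 9.03 CPM after sham operation, again without overlap. The log2 fold change was 0.74 (standard error 0.16, edgeR's quasi-likelihood test, adjusted p = 0.0393). The log2 fold change lay between 0.69 and 0.74 in 8 fits with another filter, normalization or test, and between 0.61 and 0.83 when single rats were left out. The adjusted p stayed below 0.05 in 4 of the 8 fits (0.0271 with DESeq2, 0.00177 with edgeR's likelihood ratio test, 0.00182 with edgeR's exact test and 0.0474 with limma-voom). It lay between 0.0531 and 0.203 when each of the 6 rats was left out in turn, and it was 0.0607 with all detected miRNAs kept, 0.0634 where each library had to hold at least 10 counts, 0.0556 for unscaled library totals and 0.0501 for RLE factors. The 2 arms of miR-27a thus differed in level by a large factor while their folds between the groups, 1.90 and 1.67, lay close together.

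miR-23a-3p was at 1005, 971 and 926 CPM with BCP, against 804, 827 and 706 CPM after sham operation. The groups did not overlap, and the difference was small. Its log2 fold change was 0.31 (standard error 0.10) and it did not pass edgeR's test over all miRNAs (unadjusted p = 0.017, adjusted p = 0.197). miR-24-2-5p, the only row that counts the miR-24 hairpin of this cluster alone, was at 144, 177 and 208 CPM with BCP, against 130, 118 and 179 CPM after sham operation. BCP rats 1 and 2 lay below sham-operated rat 3, so the groups overlapped (log2 fold change 0.31, standard error 0.20, adjusted p = 0.578 from edgeR's test). Leaving out single rats moved this log2 fold change to between 0.16 without BCP rat 3 and 0.48 without sham-operated rat 3, with 0.18 without sham-operated rat 2. miR-23a-5p had only 10, 8 and 5 counts with BCP, against 6, 8 and 4 after sham operation. It was left out by the filter on low counts, and a small difference could not be told at this depth.

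No row of the 23b cluster differed beyond the spread between rats. miR-23b-3p was at 1788, 1667 and 1572 CPM with BCP, against 1846, 1775 and 1526 CPM after sham operation (log2 fold change -0.03, standard error 0.11). For miR-27b-3p the log2 fold change was 0.10 (standard error 0.11), and it lay between 0.014 and 0.15 when single rats were left out. The rarer arms had log2 fold changes of 0.03 for miR-27b-5p, at 17.8 ± 0.819 CPM against 17.4 ± 0.764 CPM (SD, n = 3 each), and -0.10 for miR-23b-5p, at 9.23 ± 1.86 CPM against 9.93 ± 1.09 CPM (SD, n = 3 each). Adjusted p from edgeR's test lay between 0.747 and 0.951 for these 4 rows, DESeq2 gave adjusted p of at least 0.955, and in all 4 the groups overlapped.

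miR-24-3p, which both clusters make, was at 3404, 3678 and 3893 CPM with BCP, against 3657, 3376 and 3700 CPM after sham operation. The groups overlapped, and the log2 fold change was 0.03 (standard error 0.09, edgeR's adjusted p = 0.935). The reads of this row cannot be divided between the hairpins.

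**Figure D2:**
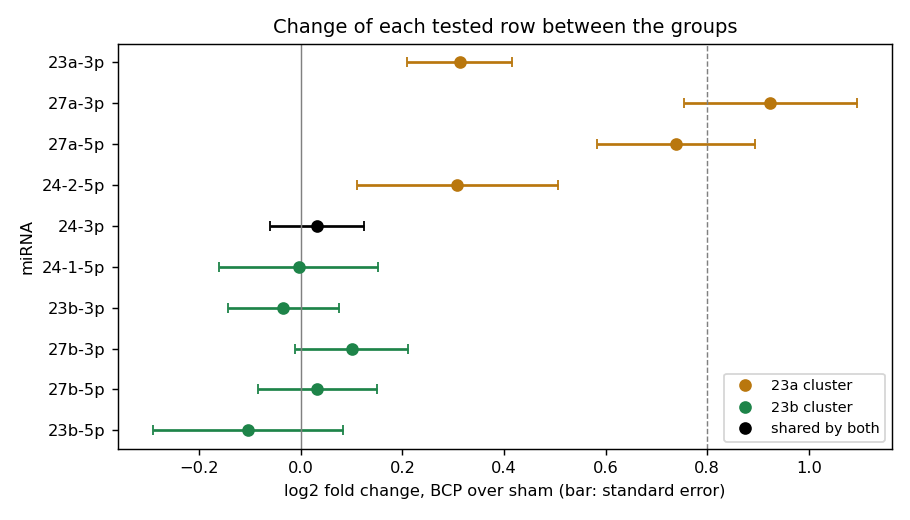
Log2 fold change between the BCP and sham-operated groups for the 9 tested rows and miR-24-1-5p, with bars for the standard error and colors for the cluster. The dashed line marks a log2 fold change of 0.8; the 4 tested rows of the 23a cluster lie between 0.31 and 0.92, the rows of the 23b cluster between -0.10 and 0.10.

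Across all miRNAs, 16 of the 459 tested miRNAs, or 3.49%, were called, all of them higher in the BCP group. Of the 9 tested rows of the family, 1 was among these called miRNAs. Without the fold change threshold 18, or 3.92%, had an adjusted p below 0.05, with 2 of the 9 rows among them. Every BCP rat lay above every sham-operated rat for 61 tested miRNAs, or 13.3%, and for 3 of the 9 rows, all 3 in the 23a cluster. The median log2 fold change was 0.10 over the 9 rows and -0.0034 over all tested miRNAs. With 9 rows, these counts describe the family and do not set it apart.

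The direct contrast of the clusters is the ratio of a 23a cluster row to its copy in the same library, which needs no normalization between libraries. The ratio of miR-27a-3p to miR-27b-3p was 0.114, 0.134 and 0.158 with BCP, against 0.0813, 0.0786 and 0.0718 after sham operation. Every BCP rat lay above every sham-operated rat, and the mean log2 ratio was higher in the BCP group by 0.80 (standard error 0.15). The 5p arms, whose sequences are further apart, gave a similar difference. The ratio of miR-27a-5p to miR-27b-5p was 0.819, 0.911 and 0.759 with BCP, against 0.449, 0.546 and 0.526 after sham operation, a difference in mean log2 ratio of 0.71 (standard error 0.12).

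The ratio of miR-23a-3p to miR-23b-3p was 0.562, 0.583 and 0.589 with BCP, against 0.435, 0.466 and 0.462 after sham operation. The difference in mean log2 ratio was 0.35 (standard error 0.04), smaller than for miR-27 and with little spread between rats. For miR-23a-5p over miR-23b-5p the ratios lay between 0.0345 and 0.0601 and the groups overlapped, with few counts of miR-23a-5p. With the 3p arms summed, the ratio of the 23a cluster to the 23b cluster was 0.171, 0.181 and 0.201 with BCP, against 0.126, 0.131 and 0.110 after sham operation, a difference in mean log2 ratio of 0.59 (standard error 0.10). The 23b cluster thus held most of the reads in both groups.

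These 5 ratios between the copies and 4 ratios between arms were tested together with a two-sided exact permutation test over the rats. The 4 ratios without overlap each gave an exact p = 0.1, the smallest that 3 rats against 3 allow, and 0.225 after Benjamini-Hochberg adjustment over the 9 ratios, so none could reach a p below 0.05. For miR-23a-5p over miR-23b-5p the exact p was 0.5. When single rats were left out, the difference in mean log2 ratio stayed between 0.68 and 0.92 for miR-27-3p, between 0.63 and 0.77 for miR-27-5p and between 0.32 and 0.37 for miR-23-3p.

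miR-24 can be set in the same frame through its 5p arms, a comparison that was added after the data had been seen and is given with no test. The ratio of miR-24-2-5p to miR-24-1-5p was 3.73, 3.76 and 4.21 with BCP, against 2.91, 3.04 and 3.45 after sham operation. The groups overlapped in CPM for both arms taken singly and did not overlap for their ratio, which differed by 0.32 in mean log2 ratio (standard error 0.09). miR-24-1-5p itself was at 45.0 ± 5.63 CPM in the BCP group and 45.1 ± 6.65 CPM in the sham-operated group (SD, n = 3 each). Most 5p counts of miR-24 were therefore those of the 23a cluster's hairpin, whereas the 3p counts of miR-23 and miR-27 came mostly from the 23b cluster.

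**Figure D3:**
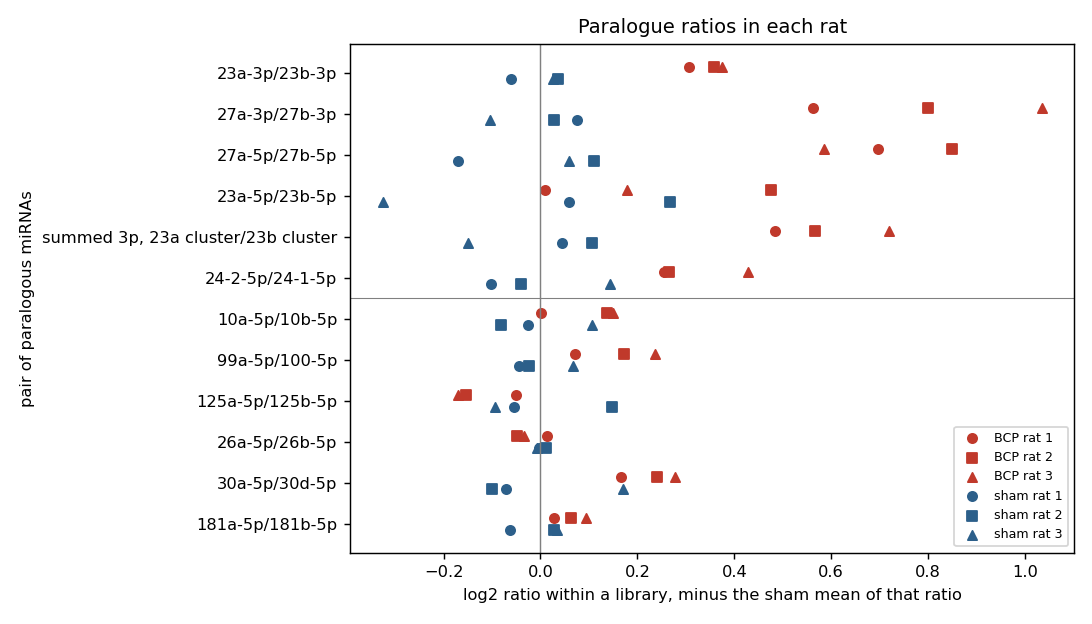
Log2 ratio of paralogous miRNAs within each library, minus the sham-operated mean of that ratio, with the 23a cluster over the 23b cluster above the line and 6 other pairs of close paralogues below it. Points are single rats; the BCP rats lie to the right of the sham-operated rats in every row above the line except miR-23a-5p over miR-23b-5p, and below the line the groups are apart only for miR-99a-5p over miR-100-5p.

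The 6 other pairs of close copies give a limited scale for such ratios, since the related miRNAs of other families were not compared. Their differences in mean log2 ratio lay between -0.13 for miR-125a-5p over miR-125b-5p and 0.23 for miR-30a-5p over miR-30d-5p, and the groups were apart for 1 pair, miR-99a-5p over miR-100-5p, with a difference of 0.16. The miR-27 and miR-23-3p ratios moved by more than any of these pairs, and whether they differ from them was not tested.

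Expressed as a share, the 23a cluster gave from 14.6% to 16.7% of the 3p counts of miR-23 and miR-27 with BCP, against 9.92% to 11.6% after sham operation, with 95% Wilson intervals for single libraries at most 0.279 percentage points wide. Of the miR-27 5p counts, miR-27a-5p gave from 43.1% to 47.7% with BCP, against 31.0% to 35.3% after sham operation, with intervals up to 9.84 percentage points wide. These shares were also chosen after their values had been seen.

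Within a cluster, miR-23 and miR-27 come from 1 transcript. The ratio of miR-27b-3p to miR-23b-3p was 6.87, 8.60 and 8.99 with BCP, against 6.93, 6.33 and 9.18 after sham operation, so it varied between libraries of a group and the groups overlapped. The ratio of miR-27a-3p to miR-23a-3p was 1.39, 1.98 and 2.41 with BCP, against 1.29, 1.07 and 1.42 after sham operation. It overlapped as well, since BCP rat 1 lay below sham-operated rat 3. In both clusters the ratio was lowest in rat 1 and highest in rat 3 of the BCP group, and lowest in rat 2 and highest in rat 3 of the sham-operated group. Divided by the ratio of the 23b cluster in the same library, that of the 23a cluster was 0.203, 0.230 and 0.268 with BCP, against 0.187, 0.169 and 0.155 after sham operation, without overlap. This quotient was added after the data had been seen and was not tested.

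**Figure D4:**
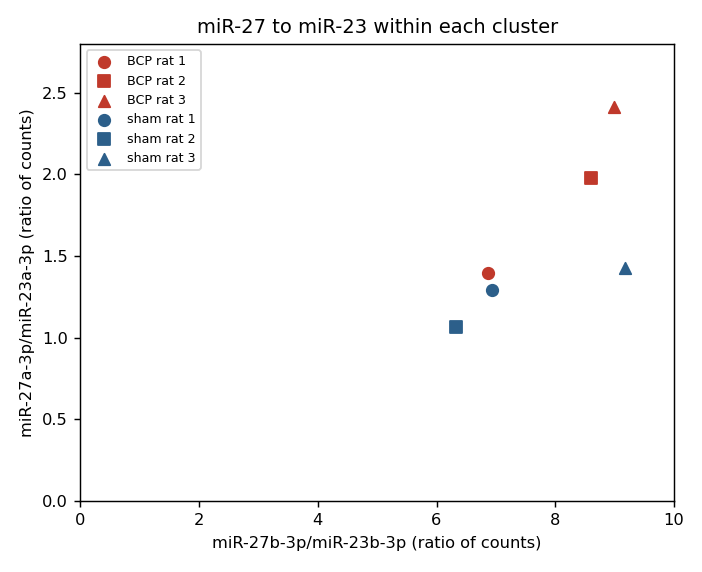
Ratio of miR-27-3p to miR-23-3p counts in the 23b cluster (horizontal) and in the 23a cluster (vertical), 1 point per rat. At a similar horizontal position each BCP rat lies above the sham-operated rat, as with BCP rat 3 (8.99 and 2.41) and sham-operated rat 3 (9.18 and 1.42).

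The balance of the arms differed between the hairpins far more than between the groups. The ratio of the 3p to the 5p count lay between 1480 and 2661 for miR-23a, between 616 and 826 for miR-27b, between 160 and 221 for miR-23b and between 88.6 and 170 for miR-27a. For miR-27a it was 91.4, 122 and 170 with BCP, against 138, 88.6 and 111 after sham operation. The groups overlapped for each of the 4 hairpins, with differences in mean log2 ratio from 0.07 to 0.22 and standard errors from 0.14 to 0.32 (two-sided exact permutation test, p from 0.5 to 0.9, adjusted p from 0.643 to 0.9). miR-24-3p over miR-24-2-5p lay between 18.7 and 28.7, and since miR-24-3p is made by both hairpins this is no arm ratio of 1 precursor and was not tested.

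**Figure D5:**
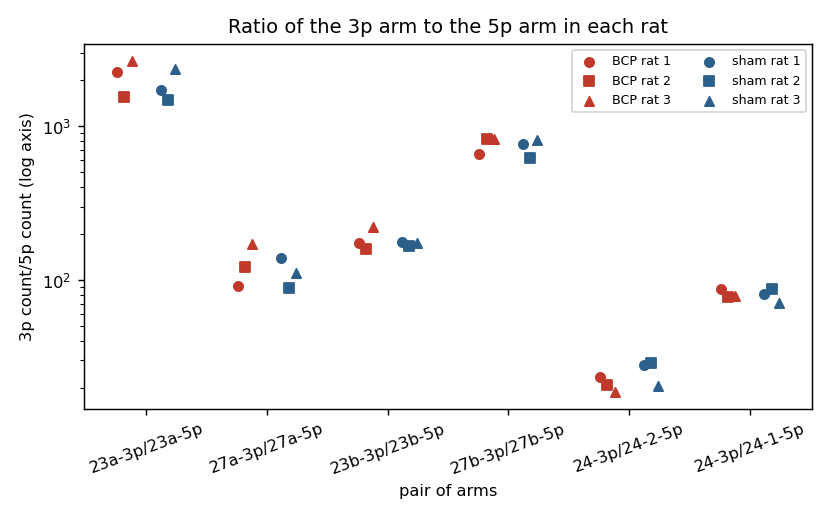
Ratio of the 3p to the 5p count (log axis) for the hairpins of miR-23a, miR-27a, miR-23b and miR-27b, and of miR-24-3p to each miR-24 5p arm, in each rat. BCP and sham-operated rats overlap for all 6 ratios, while the hairpins range from 88.6 for miR-27a in sham-operated rat 2 to 2661 for miR-23a in BCP rat 3.

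Other rows near the clusters did not pass the test. miR-24-1-5p had a log2 fold change of -0.0037, and miR-181c-5p, miR-181c-3p and miR-181d-5p, whose hairpins lie on the other strand of the same chromosome as the 23a cluster, had 0.07, 0.01 and -0.13. For miR-181d-5p the groups did not overlap and the BCP rats were the lower ones, from 659 to 713 CPM against 740 to 775 CPM after sham operation, while the other 3 rows overlapped. Adjusted p from edgeR's test for these 4 rows lay between 0.611 and 0.9997. Non-overlap with lower BCP rats was not particular to miR-181d-5p, since it was also seen for miR-330-5p, miR-490-3p and miR-434-5p. miR-3074, read from the strand opposite miR-24-1, and miR-181d-3p were too low for the filter.

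The miRNAs whose level followed the members most closely over the 6 libraries are given as a description, since 6 points that contain the group difference and share their depth leave many miRNAs alike. For miR-27a-3p they were miR-20b-5p (r = 0.989), miR-500-3p (r = 0.980) and miR-363-3p (r = 0.978), with log2 fold changes of 0.98, 0.52 and 1.51. For miR-23a-3p they were miR-6216 (r = 0.995), miR-15b-5p (r = 0.992) and miR-339-5p (r = 0.988), with log2 fold changes of 1.67, 0.49 and 0.48. miR-6216 was scarce, at 0.401 to 1.25 CPM after sham operation and 2.59 to 3.14 CPM with BCP. All correlations were taken on log2 of CPM plus 0.5. In the 23b cluster, miR-676, miR-505-3p and miR-125b-1-3p followed miR-23b-3p (r from 0.976 to 0.990) with log2 fold changes of -0.05, -0.03 and -0.05, and miR-384-5p, miR-322-5p and miR-154-3p followed miR-27b-3p (all r = 0.990) with 0.20, 0.23 and 0.45. miR-24-3p was nearest to miR-411-3p, miR-7a-5p and miR-218a-5p (r from 0.960 to 0.986).

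The lists of miRNAs known from other cell types, some of which cells of the cord also make, were set beside these rows. Of 8 myeloid and lymphoid miRNAs, 6 were tested and 4 were called, against 3.49% of all tested miRNAs: miR-155-5p, miR-146a-5p, miR-223-3p and miR-223-5p, all 4 higher in the BCP group. The other two tested, miR-150-5p and miR-342-3p, did not pass, with log2 fold changes of -0.13 and 0.11 and edgeR's adjusted p of 0.725 and 0.812. The 8 summed to levels from 6123 to 6967 CPM with BCP, against 2735 to 3615 CPM after sham operation. Most of this gap was miR-146a-5p alone, at a mean of 4372 CPM against 1312 CPM, whereas miR-150-5p had a lower mean with BCP (1131 CPM against 1241 CPM), so the sum does not describe the list as a whole. The defining leukocyte markers miR-142-3p and miR-142-5p are listed at 0 in all libraries. Of the 4 vascular miRNAs 0 were called by edgeR's test, with unadjusted p from 0.227 to 0.861 and summed levels from 21299 to 30372 CPM with BCP, against 21417 to 29010 CPM after sham operation. Of the 4 erythroid miRNAs 3 are in the table, miR-451-5p, miR-144-3p and miR-144-5p, and these are listed at 0 in all libraries. The count table also lists miRNAs outside these lists at 0 in all libraries, among them miR-186-5p, miR-98-5p, miR-301a-3p and miR-21-3p. A listing at 0, for leukocyte or erythroid miRNAs, is therefore not read here as the absence of a cell type. The part of any of these cell types in the rise of miR-27a was not tested.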

How the data were processed

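The authors trimmed and filtered the small RNA reads with the FASTX Toolkit, mapped clean reads to Rnor_6.0 with Bowtie (Bowtie2 2.2.3 in the submitters' processing notes) and identified known miRNAs by length and miRBase. What they deposited are unnormalized read counts, 1 column per rat. Here edgeR 4.0.16 (R 4.3.3) was run with filterByExpr with a minimum count of 10, TMM factors, the quasi-likelihood test over all 459 miRNAs that passed, and Benjamini-Hochberg adjustment. Standard errors came from the log2 fold change and the F statistic. Ratios were formed from counts plus 0.5 within a library and compared with SciPy 1.17.1's exact permutation test. Total counts of 13464349 to 23770677 mean that 3 counts, the smallest amount taken as told from 0, equal 0.127 to 0.221 CPM. Libraries of a group differed far beyond counting noise (chi-square per degree of freedom at least 59.0). The labels say nothing of separate litters or batches, so a litter or batch that goes with a group cannot be told apart from it. edgeR's p-values set a difference against the spread between these rats, moderated by the spread over all tested miRNAs. The exact permutation p-values use the values of these rats alone.

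All 10 members were named, with the 6 neighbouring rows and 6 other pairs of copies, and the 3 tested miRNAs most correlated with each of the abundant 3p members. The members and lists were chosen with earlier results of these data known. The alternatives were other filters, normalizations and tests (DESeq2 1.42.0, limma 3.58.1), the replicate number as a block, other pseudocounts and leaving out each rat. Same-numbered rats had correlations of -0.0282, -0.434 and 0.607 between their deviations from the group means, so the numbers were not taken as pairs.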

Additional observations from a re-analysis of the deposited data

How the results depend on the processing

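The rise of miR-27a-3p kept its direction and an adjusted p below 0.05 in all 9 fits with another filter, normalization, test or the block (log2 fold change 0.88 to 0.93, adjusted p 6.39e-05 to 0.046), and lost it in 5 of the 6 fits that each left out a rat. miR-23a-3p and miR-24-2-5p kept their direction in all of these fits and passed in none. The number of miRNAs called was 25 with edgeR's likelihood ratio test and from 8 to 20 without single rats, the lowest 3 being 8 without BCP rat 2, 9 without sham-operated rat 1 and 10 without BCP rat 3. The number of family rows called was 2 with no fold change threshold and from 0 to 1 without single rats. With the replicate block 18 miRNAs and 1 family row were called (miR-27a-5p had an adjusted p of 0.0221), and since the numbers do not pair the rats this fit is given only here. Of the 3 BCP rats, 1 (rat 3) correlated best with the sham-operated rat of its own number.

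Rows with small differences changed sign. DESeq2 gave -0.012 for miR-27b-5p and -0.013 for miR-24-3p. Leaving out single rats gave from -0.024 to 0.062 for miR-27b-5p, from -0.025 to 0.066 for miR-24-3p, from -0.14 to 0.00088 for miR-23b-3p and from -0.22 to 0.044 for miR-23b-5p, and for the ratio of arms from -0.070 to 0.38 for miR-27a, from -0.044 to 0.19 for miR-23b and from -0.047 to 0.18 for miR-27b. The cause was not tested. The ratio of arms of miR-23a kept its sign, with a difference of 0.34 with 5 counts added and from 0.046 without BCP rat 3 to 0.44 without BCP rat 2. All 5 ratios between the copies kept their direction with other pseudocounts and without single rats. The size was least stable for miR-23a-5p over miR-23b-5p, with a difference in mean log2 ratio of 0.22. It was 0.095 with 5 counts added and lay between 0.058 and 0.35 without single rats. miR-23a-5p is limited by depth, with at most 10 counts in any library.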
